A study of Mus musculus with 9 samples.

Results

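Wnt ligands, their receptors and the proteins that restrain or amplify them were examined in cultured mouse RGCs (retinal ganglion cells) by RNA sequencing. The 55 genes were taken by symbol from the 22322 genes of the table. They were 19 Wnt ligands, 12 receptors and co-receptors (the Frizzled family, Lrp5 and Lrp6), 10 secreted antagonists (the Dkk and Sfrp families, Frzb and Wif1), 7 R-spondins and Lgr receptors, and 7 feedback regulators and transcription factors of the pathway (Axin2, Nkd1, Nkd2, Rnf43, Znrf3, Lef1 and Tcf7). The rule reads symbols alone, and it was set with earlier results of these data known.

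Wnt ligands are secreted, lipid-modified proteins that bind a Frizzled receptor on the cell surface. Together with the co-receptor Lrp5 or Lrp6, a bound Frizzled stops the destruction of beta-catenin, which then enters the nucleus and activates genes with the DNA-binding factors of the TCF/LEF family. Frizzled receptors also signal without beta-catenin, in particular in the orientation of cells and in the guidance of axons. In the retina the pathway is known for its part in eye field and vessel development and in the pathfinding of ganglion cell axons.

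The 9 libraries came from wild-type RGCs, purchased and grown in culture, with 3 replicate wells in each of 3 groups. Normal RGCs were left untreated, and aging RGCs received D-galactose, a sugar used to induce features of ageing. The third group, aging RGCs + USCs medium, received D-galactose and then medium conditioned by human urine-derived stem cells that had been removed from it. The paper describes a separate growth medium for the stem cells, and no group received it unconditioned. A change of base medium and the conditioning by the stem cells therefore cannot be told apart. Nothing in the sources says that the wells came from separate cell stocks, so p-values measure only the spread between these wells, which may be technical. Libraries held 18189619 to 22342290 counts, and all comparisons share libraries, since each group enters 2 of the 3.

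The labelled cell type was checked against 12 markers of RGCs. Their summed level was 139 to 150 CPM (counts scaled to a common library size) in normal, 99.2 to 103 CPM in aging and 75.4 to 83.5 CPM in medium-treated RGCs, and most of it came from Nefl, Rbpms and Isl1. Pou4f2 and Pou4f3, transcription factors found in ganglion cells of the retina, had 0 counts in all 9 libraries, and Thy1 had at most 1. Pou4f1, of the same family, had 9, 10 and 10 counts in normal, 10, 14 and 27 in aging and 2, 8 and 15 in medium-treated RGCs. Some keratins and mesenchymal genes were far higher, with 1047 to 1285 CPM over 9 epithelial markers and 2618 to 3231 CPM over 9 mesenchymal markers. Krt8, Krt18 and Krt19 made up nearly all of the first sum, and Vim, Fn1 and Col3a1 of the second. Krt5 had 0 counts throughout, and Krt14, Cdh1, Cldn4 and Cldn7 had at most 5 in a library. Lum had at most 1 count in a library, and Col1a2 and Dcn had 0 to 12. The epithelial sum was highest and the mesenchymal sum lowest in medium-treated RGCs, but single genes went both ways. Against normal RGCs, Krt8 was higher by 0.80 on the log2 scale, while Krt18 and Krt19 were lower by 0.19 and 0.50. Fn1 and Col3a1 were lower by 1.11 and 0.93, while Vim was higher by 0.22. Endothelial markers summed to 12.1 to 14.1 CPM in normal, 8.56 to 9.41 CPM in aging and 2.28 to 2.77 CPM in medium-treated RGCs, and Cdh5 made up most of these sums. Cdh5 fell by 0.62 in aging against normal RGCs and by 2.33 in medium-treated against aging RGCs (edgeR adjusted p = 0.000114 and 1.96e-12). Pecam1 and Tie1 did not pass in aging against normal RGCs (log2 differences -0.59 and 0.48, adjusted p = 0.223 and 0.405 by edgeR). In medium-treated against aging RGCs Tie1 fell by 1.27 (edgeR adjusted p = 0.0371) and Pecam1 did not pass (0.355). Against normal RGCs Pecam1 fell by 1.08 (edgeR adjusted p = 0.0234) and Tie1 did not pass (0.206). Cldn5, an endothelial tight junction gene, had 0 counts throughout. Glial markers, mostly Glul, were at 94.4 to 106 CPM in the first 2 groups and 126 to 129 CPM under the medium. Macrophage markers summed to 59.6 to 71.5, 44.8 to 51.2 and 30.9 to 55.3 CPM, and Cd68 made up most of these sums. Other macrophage genes were lower in the aging group and in 2 medium-treated libraries, with 57, 19 and 43 counts of Adgre1 in normal, 2, 0 and 1 in aging and 2, 2 and 32 in medium-treated RGCs. Lyz2 had 522, 210 and 265, then 118, 23 and 38, then 45, 20 and 241 counts, so that medium-treated replicate 3 stood apart from its group at the level of normal RGCs. The part of these other cell types in the results below was not tested, and in bulk RNA fewer cells of a type and less RNA per cell cannot be told apart.

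The promoters of Lef1, Wnt3 and Wnt4 are shown because these genes carry the widest shifts among the tested TCF/LEF factors, falling ligands and rising ligands. Each is the 250 bases before the RefSeq start in lower case and the 50 bases from that start on in capitals, on the plus strand of GRCm38.p6. They lie at chr3:131110047-131110346 for Lef1, the most upstream of 4 starts listed and outside the GENCODE transcripts of the gene, at chr11:103773925-103774224 for Wnt3 and at chr4:137277385-137277684 for Wnt4.
Lef1: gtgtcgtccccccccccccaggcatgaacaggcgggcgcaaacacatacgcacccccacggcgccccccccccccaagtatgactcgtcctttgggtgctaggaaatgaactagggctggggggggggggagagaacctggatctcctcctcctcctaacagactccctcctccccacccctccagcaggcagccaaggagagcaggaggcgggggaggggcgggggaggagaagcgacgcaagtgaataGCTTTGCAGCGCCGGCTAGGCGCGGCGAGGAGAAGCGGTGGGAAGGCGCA
Wnt3: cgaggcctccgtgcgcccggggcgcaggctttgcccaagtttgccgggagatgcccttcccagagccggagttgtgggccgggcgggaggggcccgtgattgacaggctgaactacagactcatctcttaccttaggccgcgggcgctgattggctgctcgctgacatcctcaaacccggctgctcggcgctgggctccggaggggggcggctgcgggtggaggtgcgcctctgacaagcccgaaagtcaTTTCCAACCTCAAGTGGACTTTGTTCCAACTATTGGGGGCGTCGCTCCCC
Wnt4: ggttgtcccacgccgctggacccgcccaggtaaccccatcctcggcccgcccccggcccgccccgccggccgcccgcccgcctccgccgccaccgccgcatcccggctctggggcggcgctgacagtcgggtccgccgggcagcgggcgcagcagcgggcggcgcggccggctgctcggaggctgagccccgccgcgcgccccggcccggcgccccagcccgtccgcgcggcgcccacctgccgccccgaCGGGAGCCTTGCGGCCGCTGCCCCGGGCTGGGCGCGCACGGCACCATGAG
All 3 promoters are rich in G and C, with a GC content of 67.3%, 65.7% and 84.3% and with 18, 24 and 51 CpG dinucleotides. Over the 45 RefSeq promoters that were matched to 37 of the 55 genes, the median was 66.3% GC and 24 CpG, against 52.7% and 7 over all 32851 promoters of the same 300 bases. The letters CTTTGAT or their reverse complement ATCAAAG, a core form of the TCF/LEF motif, occurred in 2 of the 45 (4.44%), 1 of Wnt11 and 1 of Wnt5b, and in 3.73% of all promoters. These letters are not in the 3 windows printed, and other forms of the motif were not searched for.

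Receptors made up nearly all of the ligand and receptor RNA. Per transcript length, the 12 receptors and co-receptors summed to 77.37 to 80.17 FPKM (fragments scaled by transcript length and library size) in normal RGCs, 71.70 to 74.56 FPKM in aging RGCs and 56.43 to 58.46 FPKM in medium-treated RGCs, and no library of one group reached the next. These FPKM are not scaled by the TMM library size factors used in testing. With limma on log2(FPKM + 1), the median of all genes was -0.061 in medium-treated against aging RGCs and -0.080 against normal RGCs. How much of the step in the receptor sums comes from scaling was not tested. The 19 ligands summed to 3.05 to 3.36, 2.44 to 3.46 and 2.71 to 2.88 FPKM, which overlap. Secreted antagonists were scarcer still, at 0.19 to 0.47, 0.08 to 0.38 and 0.25 to 0.34 FPKM. R-spondins and Lgr receptors summed to 2.91 to 3.76, 3.75 to 4.31 and 2.84 to 2.99 FPKM, nearly all of it from Lgr4 and Lgr6. Lrp6 had the highest mean level over the 9 libraries with 20.4 FPKM, above 75.5% of genes with any FPKM, and Fzd6 and Lrp5 followed with 19.4 and 17.9 FPKM. The highest ligand, Wnt7b, reached 1.31 FPKM, above 36.0% of such genes.

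**Figure D1:**
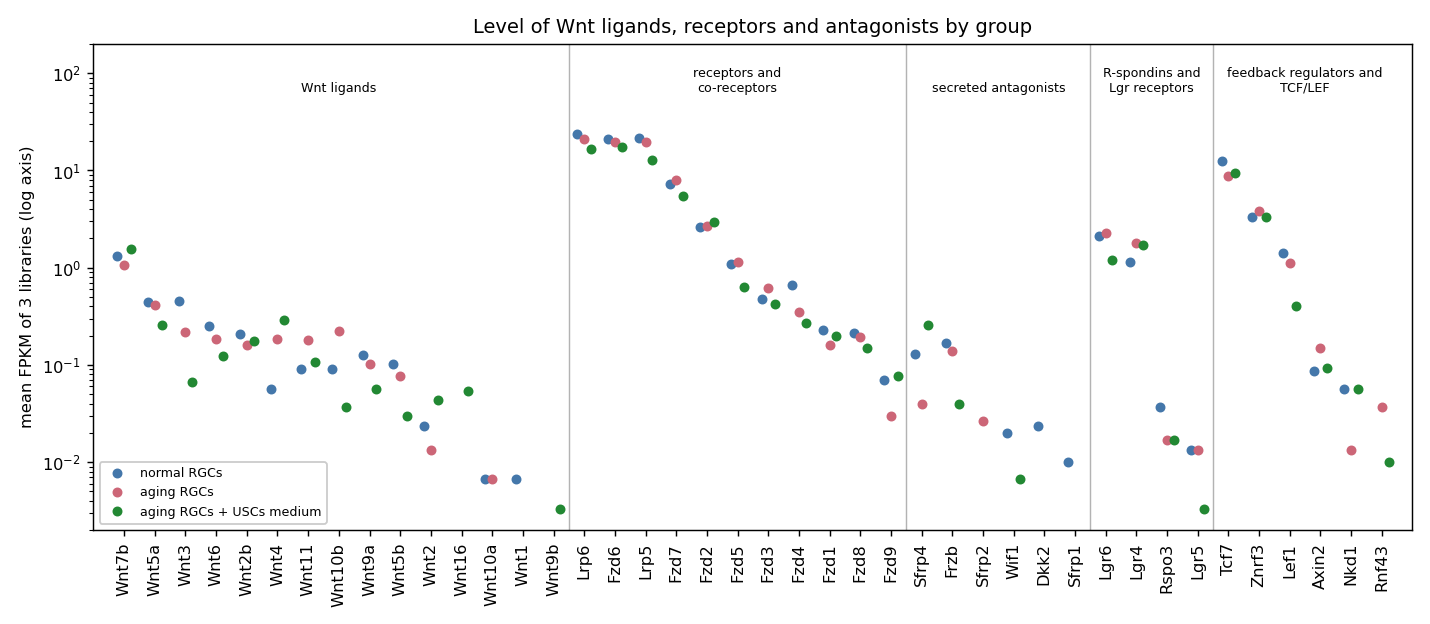
Mean FPKM of 3 libraries (log axis) for the 42 genes with a count in at least 1 library, by role and by group (blue normal, red aging, green aging + USCs medium). A group at 0 has no point. Lrp6, Fzd6 and Lrp5 lie above 10 FPKM in every group, and no ligand other than Wnt7b reaches 1 FPKM.

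The low-count filter kept 21 of the 55 genes for testing, among 12155 genes in all. These were 5 ligands (Wnt2b, Wnt3, Wnt4, Wnt5a and Wnt7b), 10 receptors (Fzd1 to Fzd8, Lrp5 and Lrp6), the antagonist Frzb, the receptors Lgr4 and Lgr6, and Lef1, Tcf7 and Znrf3. Of the 34 not tested, 13 had 0 counts in all 9 libraries, which allows up to 3 counts in a library, or 0.130 to 0.162 CPM. They were Wnt3a, Wnt7a, Wnt8a, Wnt8b, Fzd10, Dkk1, Dkk3, Dkk4, Sfrp5, Rspo1, Rspo2, Rspo4 and Nkd2. The filter asked for about 0.498 CPM in 3 libraries. It was not met in all libraries by 4 genes, namely Wnt3 (in 3 normal, 2 aging and 0 medium-treated libraries), Wnt4 (0, 3 and 3), Frzb (2, 1 and 0) and Wnt2b (2, 2 and 1), and the other 17 exceeded it in all 9.

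Between aging and normal RGCs, as many of these genes were higher as lower. Wnt4, Fzd3, Lgr4 and Znrf3 rose and Wnt3, Fzd4, Lrp6 and Tcf7 fell at an adjusted p under 0.05 in edgeR's quasi-likelihood test, 4 of 21 (19.0%) each way. Of all 12155 genes tested, 23.5% were higher and 22.9% lower. Among the 17 genes over the filter's level in every library, 3 rose and 3 fell. A change of at least 2-fold was passed by Wnt4 upward and Wnt3 downward (1.09% and 1.56% of all genes), both of which met the filter through the groups where they were higher, and by none of the 17, so nothing is read from these shares. The median log2 difference was -0.10 over the 21 genes and 0.0020 over all genes.

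Between medium-treated and aging RGCs the balance was toward lower values. Wnt7b was the 1 gene of 21 (4.76%) that rose, where 27.1% of all genes did. The 10 that fell (47.6%, against 25.9% of all genes) were the ligands Wnt3 and Wnt5a, the receptors Fzd3, Fzd5, Fzd7, Lrp5 and Lrp6, the antagonist Frzb, the R-spondin receptor Lgr6 and the factor Lef1. Wnt3, Frzb and Lef1 fell at least 2-fold (4.22% of all genes did), of which Wnt3 and Frzb met the filter through the groups where they were higher, so that 1 of the 17 other genes, Lef1, is left. Wnt7b rose by less than 2-fold, a size that 1.23% of all genes reached. The median log2 difference was -0.29 against -0.0067 over all genes. Among the 17 genes over the filter's level in every library, 1 rose and 8 fell. The difference of these shares from those of all genes was not tested.

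Against normal RGCs, medium-treated RGCs were again mostly lower. Of 21 genes, 12 were lower than in normal RGCs (57.1%, against 29.9% of all genes), namely Wnt3, Wnt5a, Fzd4, Fzd5, Fzd6, Fzd7, Lrp5, Lrp6, Frzb, Lgr6, Lef1 and Tcf7. Wnt4, Fzd2 and Lgr4 were higher (14.3%, against 30.6%). Among the 17 genes over the filter's level in every library, 2 were higher and 10 lower. At least 2-fold, Wnt3, Fzd4, Frzb and Lef1 were lower (5.25% of all genes were) and Wnt4 was higher (1.47%), and of the 17 these were Fzd4 and Lef1. Without TMM library size factors the split of all genes itself turned toward lower values, with 19.3% higher and 34.6% lower for medium-treated against aging RGCs and 21.3% and 40.2% for medium-treated against normal RGCs. In those fits 12 members were lower in each of these comparisons and 1 and 2 were higher.

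**Figure D2:**
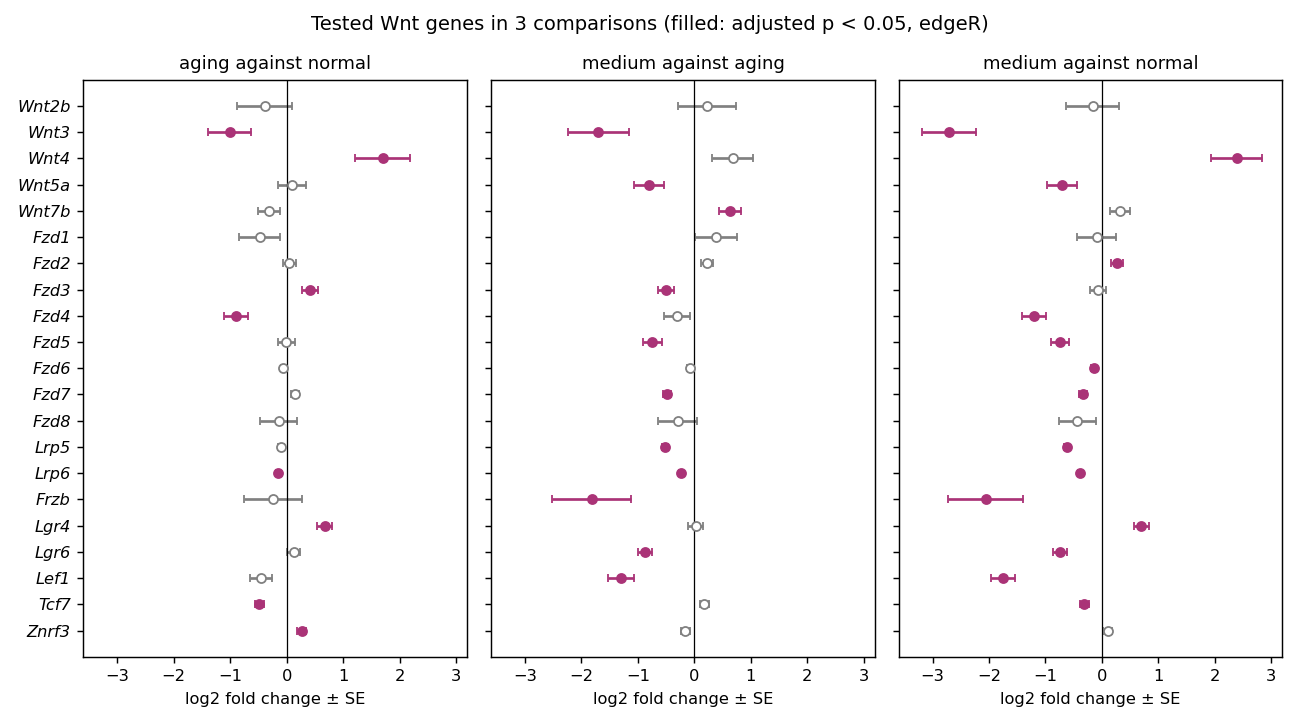
Log2 fold change with its standard error for the 21 genes tested in each of 3 comparisons (edgeR). Filled points have an adjusted p under 0.05. In the middle panel, medium-treated against aging RGCs, 10 filled points lie left of 0 and only Wnt7b lies right of it.

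The ligands moved in different directions. Wnt3, a classical activator of the beta-catenin branch (chr11:103774150-103817957, plus strand, GRCm38), had 28, 35 and 24 counts in normal, 9, 13 and 17 in aging and 5, 1 and 6 in medium-treated RGCs. The 3 groups did not overlap and stepped down from normal to aging to medium-treated RGCs. Wnt3 averaged 1.36 ± 0.288, 0.672 ± 0.187 and 0.205 ± 0.137 CPM (SD, n = 3). Its log2 fold change was -1.01 for aging against normal RGCs (SE 0.381, adjusted p = 0.0314 by edgeR) and -1.70 for medium-treated against aging RGCs (SE 0.539, adjusted p = 0.00918 by edgeR). Medium-treated and normal RGCs differed by -2.71 on that scale (SE 0.475, edgeR adjusted p = 1.66e-05). The aging call was lost with DESeq2 (adjusted p = 0.0913) and in the absence of normal library 2 (0.142), aging library 1 (0.129) or aging library 2 (0.0787). The call for the medium against aging RGCs was lost with limma on log2(FPKM + 1) (0.0513) and in the absence of aging library 3 (0.0518) or medium library 2 (0.0669), whereas that against normal RGCs passed in every setting tried.

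Wnt4, which acts in epithelial and gonadal development through beta-catenin and other branches (chr4:137277489-137299726, plus strand), ran the opposite way. Its rounded counts were 5, 2 and 8 in normal, 13, 17 and 15 in aging and 26, 20 and 28 in medium-treated RGCs, so that the groups stepped up without overlap. Wnt4 averaged 0.236 ± 0.15, 0.779 ± 0.088 and 1.25 ± 0.232 CPM (SD, n = 3). The rise was 1.71 on the log2 scale in aging against normal RGCs (SE 0.487, adjusted p = 0.00499 by edgeR) and 2.39 in medium-treated against normal RGCs (SE 0.450, adjusted p = 4.38e-05). The step from aging to medium-treated RGCs, 0.68 with a standard error of 0.369, did not pass (adjusted p = 0.124 by edgeR). With limma on log2(FPKM + 1) the aging call was lost (adjusted p = 0.0569). Counts of Wnt4 carried decimals in 3 libraries and were rounded.

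Wnt7b, the most abundant ligand and one known for roles in vessels and lung (chr15:85535437-85582473, minus strand), was at 3.42, 4.02 and 4.09 CPM in normal, 2.16, 3.25 and 3.85 in aging and 4.57, 4.57 and 5.28 in medium-treated RGCs. Every medium-treated library was above all others, while the normal and aging groups overlapped. The log2 fold change was 0.63 for medium-treated against aging RGCs (SE 0.191, adjusted p = 0.00645 by edgeR). Without aging replicate 1, the lowest library, it was 0.44 with an adjusted p of 0.0607. Against normal RGCs the difference of 0.32 did not pass (adjusted p = 0.128 by edgeR).

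Wnt5a, the best known ligand of the branches without beta-catenin (chr14:28504750-28527448, plus strand), was at 2.21, 1.70 and 2.32 CPM in normal, 1.89, 2.37 and 2.38 in aging and 1.44, 1.09 and 1.28 in medium-treated RGCs. Normal and aging libraries overlapped, and medium-treated libraries lay below both. Wnt5a fell by 0.80 on the log2 scale in medium-treated against aging RGCs (SE 0.264, adjusted p = 0.0119 by edgeR) and by 0.71 against normal RGCs (SE 0.263, adjusted p = 0.0217). Without medium replicate 2 both missed the threshold (0.0559 and 0.0857). The first also did in both limma fits (0.0615 and 0.0729), and the second with DESeq2 (0.0579) and without normal replicate 1 or 3 (0.0676 and 0.0796). Wnt2b, the fifth ligand tested, ranged from 0.247 to 1.03 CPM with overlap between all groups (adjusted p 0.546 to 0.781 by edgeR). Wnt5a and Wnt7b each share exonic bases with a gene on the other strand, and whether reads were counted by strand is not given in the sources used here.

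**Figure D3:**
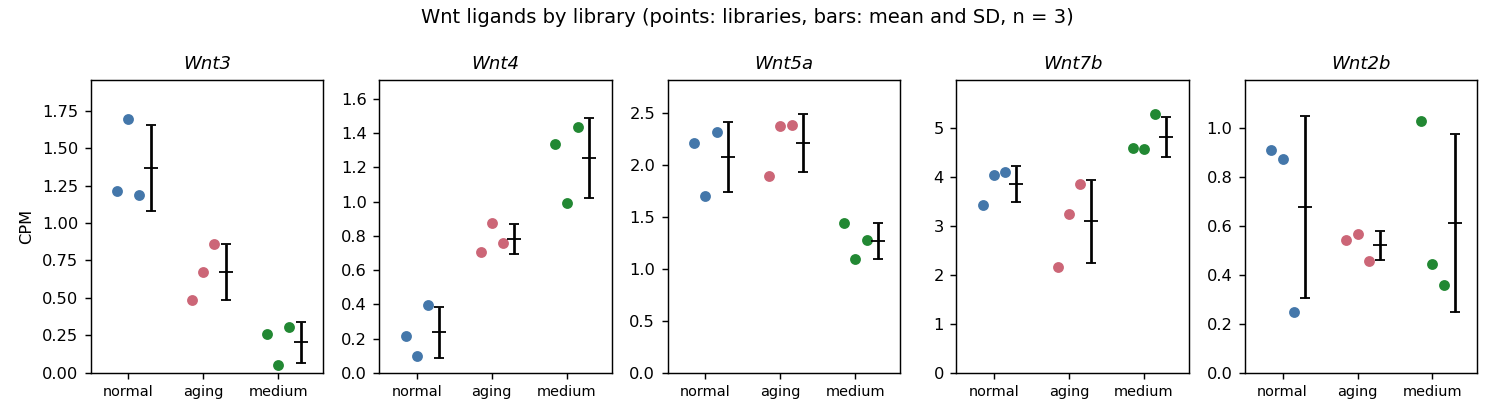
CPM of the 5 tested ligands in each library (points) with the mean and SD of 3 libraries (bars). Wnt3 steps down from 1.36 to 0.672 to 0.205 CPM and Wnt4 steps up from 0.236 to 0.779 to 1.25 CPM across the groups, Wnt5a is lowest and Wnt7b highest in medium-treated RGCs, and Wnt2b overlaps throughout.

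The other 14 ligands were at 0 or too low to test. Wnt6 had 3 to 11 counts in a library, Wnt9a 1 to 10, Wnt5b 1 to 9, Wnt11 0 to 10 and Wnt2 0 to 4. Wnt10b had 2, 5 and 5 counts in normal, 10, 6 and 13 in aging and 1, 0 and 2 in medium-treated RGCs. In a fit without the low-count filter Wnt10b fell by 3.15 on the log2 scale in medium-treated against aging RGCs (SE 0.938, adjusted p = 0.00269 by edgeR). Wnt16 was counted in the medium-treated libraries alone, with 2, 2 and 1 counts, which is at or under what a count of 0 allows. Wnt1, Wnt9b and Wnt10a had at most 1 count in any library. Several ligand genes are close neighbours, with Wnt6 and Wnt10a 6193 bases apart, Wnt10b and Wnt1 11706, Wnt3a and Wnt9a 16175, and Wnt9b and Wnt3 24328. In the last pair Wnt9b had 1 count in all 9 libraries together, and Wnt3 had 138.

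The co-receptors Lrp5 and Lrp6, which pair with Frizzled receptors in the beta-catenin branch, were with Fzd6 the most abundant genes of the set. Lrp6 (chr6:134446476-134566965, minus strand) was at 205, 205 and 209 CPM in normal, 188, 189 and 182 in aging and 160, 157 and 156 in medium-treated RGCs. The groups stepped down without overlap. Lrp6 fell by 0.15 on the log2 scale in aging against normal RGCs (SE 0.034, adjusted p = 0.000699 by edgeR) and by 0.24 in medium-treated against aging RGCs (SE 0.0346, adjusted p = 1.27e-06). Lrp5 (chr19:3584828-3686564, minus strand) was at 111, 103 and 106 CPM in normal, 93.2, 104 and 101 in aging and 66.5, 71.4 and 70.1 in medium-treated RGCs. Normal and aging libraries overlapped, and the medium-treated ones were the lowest. Lrp5 fell by 0.52 in medium-treated against aging RGCs (SE 0.0478, adjusted p = 3.88e-10 by edgeR) and by 0.62 against normal RGCs (SE 0.0472, adjusted p = 4.69e-12), while its log2 fold change in aging against normal RGCs was -0.10 (adjusted p = 0.0719 by edgeR). Without TMM factors or without normal or aging replicate 2, that last difference passed (adjusted p 0.0296 to 0.0335).

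Among the Frizzled receptors, Fzd4, the receptor of the Norrin signal that shapes retinal vessels (chr7:89404355-89413134, plus strand), was at 4.07, 4.56 and 4.49 CPM in normal, 1.95, 2.01 and 3.04 in aging and 1.54, 2.04 and 2.1 in medium-treated RGCs. Both D-galactose groups were below normal RGCs and overlapped each other. Fzd4 fell by 0.90 on the log2 scale in aging against normal RGCs (SE 0.210, adjusted p = 0.000795 by edgeR) and by 1.20 in medium-treated against normal RGCs (SE 0.216, adjusted p = 2.21e-05). From aging to medium-treated RGCs the log2 difference was -0.30 (SE 0.236, adjusted p = 0.291 by edgeR). Cdh5, the endothelial cadherin, was at 10.6 to 11.6, 7.0 to 7.39 and 1.33 to 1.54 CPM in these groups. Cdh5 passed in aging against normal RGCs (log2 fold change -0.62, edgeR adjusted p = 0.000114), and the endothelial markers Pecam1 and Tie1 did not. A link of Fzd4 to endothelial cells was not tested.

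Fzd5, a Frizzled of early eye development (chr1:64730558-64737751, minus strand), showed the other pattern. It was at 5.76, 6.64 and 6.56 CPM in normal, 6.54, 5.56 and 6.73 in aging and 4.52, 3.67 and 3.07 in medium-treated RGCs. Normal and aging libraries overlapped, and the medium-treated ones were all lower. Fzd5 fell by 0.74 on the log2 scale against aging RGCs (SE 0.162, adjusted p = 0.000335 by edgeR) and by 0.75 against normal RGCs (SE 0.160, adjusted p = 0.000207). Fzd7 was at 29.9 to 33.6, 34.6 to 36.9 and 25.2 to 26.6 CPM in the 3 groups and fell by 0.48 against aging RGCs (SE 0.0659, adjusted p = 5.71e-07 by edgeR) and by 0.33 against normal RGCs. Fzd3, which guides axons through the planar polarity branch, was at 5.37 to 6.54 CPM in normal, 7.14 to 9.01 CPM in aging and 5.06 to 6.11 CPM in medium-treated RGCs. Its log2 fold change was 0.42 for aging against normal RGCs (SE 0.140, adjusted p = 0.0151 by edgeR), -0.49 for medium-treated against aging RGCs (SE 0.142, adjusted p = 0.00462) and -0.07 for medium-treated against normal RGCs (adjusted p = 0.684). Without aging replicate 3, the highest library, neither of the first 2 passed, and the rise was also lost without normal replicate 1 and in both limma fits (adjusted p up to 0.172).

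Of the remaining receptors, Fzd6 and Fzd2 passed in 1 comparison each. Fzd6, the most abundant Frizzled, was at 82.0 to 84.6, 76.5 to 82.8 and 73.2 to 77.0 CPM and passed in medium-treated against normal RGCs (log2 fold change -0.14, SE 0.0445, adjusted p = 0.00811 by edgeR). Fzd2 was at 8.77 to 10.1, 9.53 to 10.2 and 10.5 to 12.7 CPM and rose by 0.27 in the same comparison (SE 0.108, adjusted p = 0.0341 by edgeR), a call lost in 8 of 19 other settings, among them those without normal replicate 2 or 3 or medium replicate 2 (adjusted p up to 0.234). Fzd1, at 0.567 to 1.04 CPM, had log2 differences of -0.48 in aging against normal and 0.38 in medium-treated against aging RGCs without overlap of the groups (adjusted p = 0.304 and 0.409 by edgeR). Fzd8, at 0.794 to 1.52 CPM, had differences of -0.14 and -0.29 with overlap (adjusted p = 0.750 and 0.491). Fzd9 had 0 to 5 counts in a library. Fzd5 and Fzd6 share exonic bases with a gene on the other strand.

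The secreted antagonists were almost absent from these cultures. Frzb, which binds Wnt ligands outside the cell (chr2:80411970-80447625, minus strand), had 17, 5 and 11 counts in normal, 11, 5 and 9 in aging and 3, 1 and 3 in medium-treated RGCs. Normal and aging libraries overlapped and medium-treated libraries were below both. Frzb fell by 1.82 on the log2 scale in medium-treated against aging RGCs (SE 0.701, adjusted p = 0.0302 by edgeR) and by 2.06 against normal RGCs (SE 0.669, adjusted p = 0.00933). At these counts the first call was lost in 7 of 17 other settings, with DESeq2, with both limma fits and without aging replicate 1 or 3 or medium replicate 1 or 2 (adjusted p 0.0503 to 0.155). The second was lost in 3, without normal replicate 1 (0.0697), without medium replicate 2 (0.0520) and with limma on log2(FPKM + 1) (0.0733). Sfrp4, of the same family, had 11, 5 and 8 counts in normal, 3, 0 and 1 in aging and 6, 7 and 10 in medium-treated RGCs. Its aging libraries were below all others, and in the fit without the low-count filter Sfrp4 fell by 2.33 on the log2 scale in aging against normal RGCs (SE 0.900, adjusted p = 0.0302 by edgeR) and rose by 2.39 in medium-treated against aging RGCs (SE 0.902, adjusted p = 0.0226). Dkk2, Sfrp1, Sfrp2 and Wif1 had at most 3 counts in any library.

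The R-spondin receptors Lgr4 and Lgr6, which raise Wnt sensitivity by holding back the ligases Rnf43 and Znrf3, differed from each other. Lgr4 (chr2:109917647-110014257, plus strand) was at 6.50, 4.31 and 5.87 CPM in normal, 8.71, 9.27 and 8.71 in aging and 8.84, 9.03 and 9.27 in medium-treated RGCs. Both D-galactose groups were above normal RGCs and overlapped each other. Lgr4 rose by 0.67 on the log2 scale in aging against normal RGCs (SE 0.135, adjusted p = 0.000162 by edgeR) and by 0.70 in medium-treated against normal RGCs (adjusted p = 6e-05), with a difference of 0.02 between the 2 D-galactose groups (SE 0.129, adjusted p = 0.891 by edgeR). Lgr6 (chr1:134983301-135105276, minus strand) was at 9.57, 8.09 and 9.32 CPM in normal, 9.41, 10.9 and 9.16 in aging and 5.24, 5.66 and 5.22 in medium-treated RGCs. Here normal and aging libraries overlapped and the medium-treated group was lower. Lgr6 fell by 0.87 against aging RGCs (SE 0.127, adjusted p = 1.59e-06 by edgeR) and by 0.74 against normal RGCs (SE 0.127, adjusted p = 1.14e-05). Of the R-spondins, which are the ligands of these receptors, Rspo3 had 0 to 3 counts in a library and the other 3 had none. Lgr5 had 0 to 2 counts.

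The TCF/LEF factors are both the nuclear effectors of the pathway and, for Lef1, a common target of it. Lef1 (chr3:131110471-131224356, plus strand) had 106, 83 and 93 counts in normal, 65, 67 and 53 in aging and 25, 31 and 21 in medium-treated RGCs. In counts and CPM the 3 groups did not overlap and stepped down, while in FPKM normal (1.19 to 1.56) and aging libraries (1.00 to 1.20) overlapped and medium-treated libraries (0.31 to 0.56) were lower. Lef1 averaged 4.40 ± 0.328, 3.22 ± 0.462 and 1.30 ± 0.232 CPM (SD, n = 3). It fell by 1.30 on the log2 scale in medium-treated against aging RGCs (SE 0.229, adjusted p = 2.4e-05 by edgeR) and by 1.75 against normal RGCs (SE 0.218, adjusted p = 6.93e-08), and both passed in every setting tried. In aging against normal RGCs the log2 fold change was -0.45 (SE 0.191, adjusted p = 0.0521 by edgeR), and it passed in 8 of 19 other settings (0.0307 to 0.0493). Exonic bases of Lef1 overlap a gene on the other strand.

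Tcf7 (chr11:52252371-52283014, minus strand) was the most abundant of the feedback genes and factors, at 26.7, 29.6 and 27.9 CPM in normal, 21.5, 19.6 and 18.9 in aging and 24.1, 19.9 and 23.7 in medium-treated RGCs. Both D-galactose groups were below normal RGCs and overlapped each other. Tcf7 fell by 0.49 on the log2 scale in aging against normal RGCs (SE 0.0797, adjusted p = 1.06e-05 by edgeR) and by 0.31 in medium-treated against normal RGCs (SE 0.0782, adjusted p = 0.00108). The difference of 0.18 between medium-treated and aging RGCs (SE 0.0822, adjusted p = 0.0727 by edgeR) passed without aging replicate 1 (0.0364) and without medium replicate 2 (0.0111). Of the same family, Tcf7l1 and Tcf7l2 fell by 0.51 and 0.44 in medium-treated against aging RGCs (edgeR adjusted p = 0.00133 and 0.000743). Neither passed in aging against normal RGCs (adjusted p = 0.730 and 0.320 by edgeR), and both belong to the nuclear list below.

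The feedback regulators were mostly low. Znrf3, a ligase that removes Frizzled receptors from the membrane, was at 17.2 to 18.9 CPM in normal, 20.6 to 21.9 CPM in aging and 18.4 to 20.7 CPM in medium-treated RGCs. Znrf3 rose by 0.26 in aging against normal RGCs (SE 0.0780, edgeR adjusted p = 0.00645), a call lost in both limma fits. Axin2, the most widely used readout of beta-catenin signalling, had 4, 2 and 9 counts in normal, 12, 14 and 5 in aging and 9, 7 and 6 in medium-treated RGCs. All 3 groups of Axin2 overlapped, and in the fit without the low-count filter aging and normal RGCs differed by 1.17 on the log2 scale (SE 0.666, adjusted p = 0.176 by edgeR). Nkd1 had 0 to 4 counts in a library. Rnf43, the partner of Znrf3, had 0 in all normal libraries, 3, 0 and 5 in aging and 0, 0 and 2 in medium-treated RGCs. At these counts it passed for aging against normal RGCs in the fit without the filter (adjusted p = 0.0443 by edgeR), with libraries of both groups at 0.

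**Figure D4:**
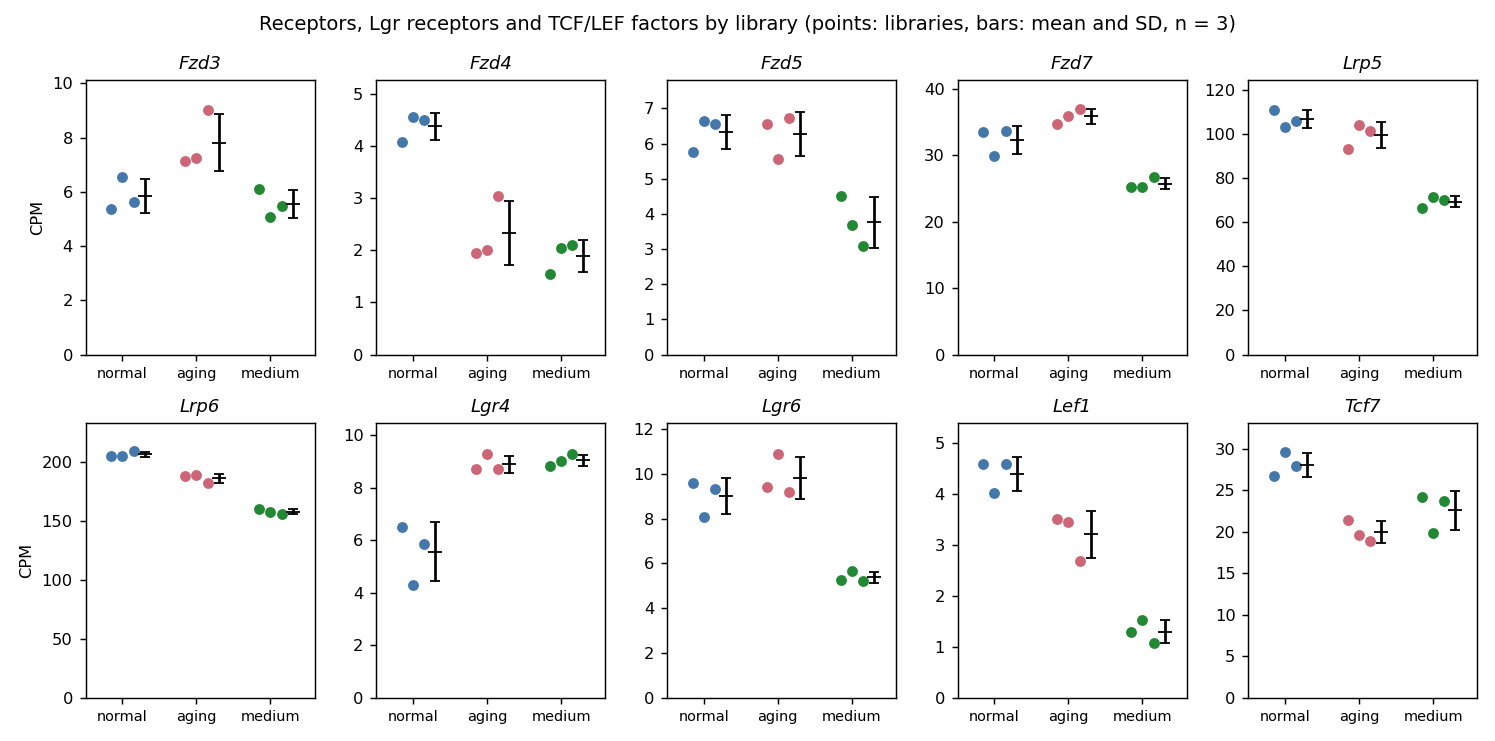
CPM of 6 receptors, Lgr4, Lgr6, Lef1 and Tcf7 in each library (points) with the mean and SD of 3 libraries (bars). Fzd5, Fzd7, Lrp5 and Lgr6 are lowest in medium-treated RGCs, Fzd4, Lgr4 and Tcf7 differ from normal RGCs in both D-galactose groups, and Lrp6 and Lef1 step down across the 3 groups.

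Genes that act around these ligands and receptors were read from lists by role. Of 3 secretion genes, Porcn, which attaches the lipid to Wnt ligands, rose by 1.78 on the log2 scale in medium-treated against aging RGCs (0.265 to 0.915 CPM, SE 0.557, adjusted p = 0.00825 by edgeR). Porcn had 10, 3 and 2 counts in aging and 17, 15 and 22 in medium-treated RGCs, so it met the filter mainly through the group where it was higher. Wls, which carries Wnt ligands to the surface, fell by 0.31 from 209 to 169 CPM (SE 0.0384, adjusted p = 1.14e-07 by edgeR), and Notum, an extracellular enzyme that inactivates them, fell by 1.14 (SE 0.394, adjusted p = 0.0160). Counts of Notum were 22, 27 and 29 in aging and 10, 18 and 8 in medium-treated RGCs. In aging against normal RGCs the log2 differences of Porcn, Wls and Notum were -0.98, -0.02 and -0.60 (adjusted p 0.131 to 0.724 by edgeR). Of 2 other receptors tested, Ptk7 fell by 0.72 in aging against normal RGCs, from 23.1 to 14.1 CPM, and Ryk moved by 0.11 up and then by 0.10 down.

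Among membrane and extracellular modulators, Apcdd1 and Draxin rose in aging RGCs and fell again under the medium. Apcdd1, an inhibitor at the cell surface, averaged 31.4, 52.5 and 28.9 CPM in normal, aging and medium-treated RGCs, with a log2 fold change of 0.74 for aging against normal RGCs (SE 0.0631, adjusted p = 1.32e-10 by edgeR) and -0.86 for medium-treated against aging RGCs (SE 0.0643, adjusted p = 6.41e-12). Draxin, an axon guidance protein that also antagonises Wnt signals, averaged 10.5, 17.1 and 10.4 CPM, with log2 fold changes of 0.69 and -0.71. Tspan12, a partner of Fzd4, fell by 0.41 in medium-treated against aging RGCs. Of 5 tested in this list, 2 rose and 2 fell in aging against normal RGCs (23.5% and 22.9% of all genes) and 3 fell in medium-treated against aging RGCs (25.9% of all genes).

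Inside the cell, 23 genes of the cytoplasmic steps and 16 nuclear genes were tested. In aging against normal RGCs 3 cytoplasmic genes rose and 9 fell, and 5 nuclear genes rose and 1 fell, where 23.5% of all genes rose and 22.9% fell. In medium-treated against aging RGCs 3 cytoplasmic genes rose and 9 fell, and 1 nuclear gene rose and 13 fell, where 27.1% of all genes rose and 25.9% fell. The median log2 difference was -0.06 over the cytoplasmic and -0.29 over the nuclear genes. Tle2, a corepressor that binds TCF/LEF factors, averaged 6.73, 4.81 and 1.77 CPM and fell by 1.43 in medium-treated against aging RGCs (SE 0.202, adjusted p = 8.75e-07 by edgeR). Ctnnbip1, an inhibitor of the contact between beta-catenin and TCF factors, fell by 0.64, and Pygo1, a coactivator, fell by 1.28 (adjusted p = 0.0325 by edgeR) from 0.947 to 0.389 CPM. Pygo1 had 13, 14 and 28 counts in aging and 12, 9 and 2 in medium-treated RGCs, so it met the filter mainly through the groups where it was higher. Among cytoplasmic genes, Dact3 fell by 0.79 in aging against normal RGCs and by 0.59 in medium-treated against aging RGCs, and Apc2 fell by 0.98 in the latter. Dact2 passed only in medium-treated against normal RGCs (log2 fold change -2.02, edgeR adjusted p = 0.0033). It had 18, 8 and 19 counts in normal, 7, 9 and 10 in aging and 5, 4 and 1 in medium-treated RGCs. Dact2 thus met the filter through the groups where it was higher.

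Of 8 planar polarity genes tested, 4 fell in aging against normal RGCs, 4 fell in medium-treated against aging RGCs and 7 fell in medium-treated against normal RGCs, against 22.9%, 25.9% and 29.9% of all genes. Celsr1 fell by 0.68 and Vangl2 by 0.74 in aging against normal RGCs, while Prickle1 fell by 1.34 in medium-treated against aging RGCs, from 8.52 to 3.37 CPM (SE 0.154, adjusted p = 2.87e-08 by edgeR). Of 12 genes tested that are commonly named as Wnt targets, 4 rose and 5 fell in aging against normal RGCs (23.5% and 22.9% of all genes), and 1 rose and 7 fell in medium-treated against aging RGCs (27.1% and 25.9%). The receptor kinase Ephb2 averaged 36.0, 24.1 and 15.7 CPM and Ephb3 16.0, 18.7 and 8.17 CPM. Ephb2 fell by 0.58 and then by 0.62, and Ephb3 fell by 1.19 in medium-treated against aging RGCs (SE 0.104, adjusted p = 1.5e-10 by edgeR). Bambi, a decoy receptor, fell by 0.44 in aging against normal RGCs (adjusted p = 0.0388 by edgeR). In the broader KEGG set of Wnt signalling from the deposited annotation, which holds 53 of the 55 genes above, 110 genes were tested, of which 23 rose and 33 fell in aging against normal RGCs and 24 rose and 42 fell in medium-treated against aging RGCs, beside the same shares of all genes.

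**Figure D5:**
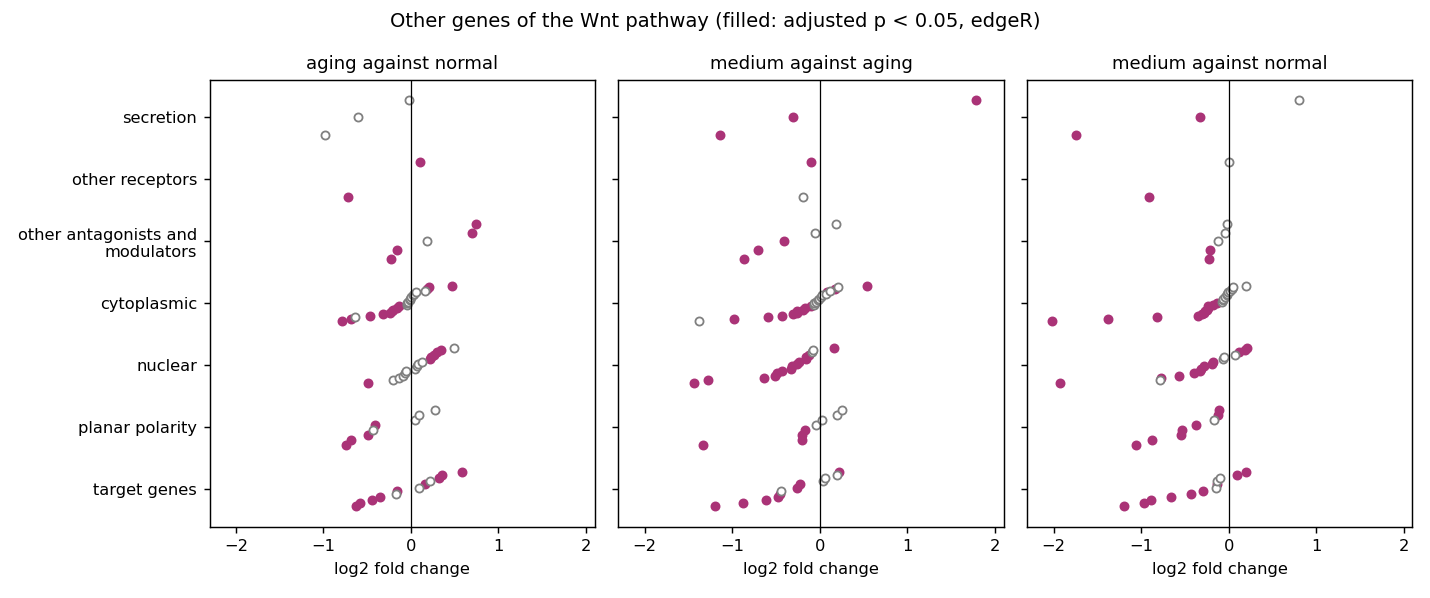
Log2 fold change of each tested gene in 7 lists of the Wnt pathway, 2 to 23 genes a list, in 3 comparisons (edgeR). Filled points have an adjusted p under 0.05, and the nuclear list has 13 filled points left of 0 in medium-treated against aging RGCs.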

How the data were processed

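RNA of 9 libraries was analysed, with groups and replicate numbers taken from the sample titles. Per gene and library, the authors deposited expected counts, which estimate read numbers before any normalization, and FPKM values, which correct for transcript length and depth. Poly(A) RNA was selected with oligo(dT) beads. The build mm10 is named in the submitters' processing notes, while aligner, counting program and strand use were not given in the sources used here. Of the values above 0, 11.1% to 11.6% were not whole, and expected counts were rounded for testing. Library totals were 18189619 to 22342290, and zero floors cover counting error only.

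Counts were tested with edgeR 4.0.16 in R 4.3.3 (filterByExpr, TMM factors, 1 mean per group over all 9 libraries, 6 residual degrees of freedom, quasi-likelihood F test, Benjamini-Hochberg adjustment over 12155 genes). The method was tested on simulated data. CPM used TMM library sizes, SD and n refer to 3 libraries, and FPKM, without TMM factors, served for levels between genes and sums by role. Coordinates came from GENCODE M21 on GRCm38, where 22267 genes matched by identifier, and promoters from RefSeq on GRCm38.p6.

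The members, the gene lists and the tests were chosen with earlier results of these data known. Values in every library are given for members that passed with a change of at least 1.5-fold in any comparison and for the highest member by FPKM of each role. From each other pathway list, the 3 genes with the widest change among those passing are named. Fzd3, Fzd7, Wnt10b, Tcf7l1, Tcf7l2, the overlaps and the markers named singly were chosen after their values were seen, as was the KEGG set. Alternatives were DESeq2 1.42.0, edgeR's likelihood ratio test, other scalings and filters, limma 3.58.1 on log2(FPKM + 1) and log2(FPKM + 0.1), a replicate block, only the groups compared, fold-change thresholds and each library left out.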

Additional observations from a re-analysis of the deposited data

How the results depend on the processing

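Of 27 passing differences among 13 members (the 11 that changed at least 1.5-fold, Lrp6 and Tcf7), 19 passed in every alternative that tested them, and over the 506 alternatives run 480 stayed on the same side, 26 lost the call and 0 turned direction. Passing members outside these 13 are not in that tally. Among them Fzd2 lost its call in 8 settings, Fzd3 in 4 (aging against normal) and 2 (medium-treated against aging) and Znrf3 in 2, while Fzd6 and Fzd7 kept theirs. Wnt4 and Frzb were not tested under the filter of 1 CPM in 3 libraries, nor Frzb (medium comparisons) and Wnt3 (medium-treated against aging) with only the groups compared, since the filters dropped them. With a change of at least 2-fold required, the counts of members higher and lower were 1 and 1 in aging against normal, 0 and 3 in medium-treated against aging and 1 and 4 in medium-treated against normal RGCs. With 1.5-fold they were 2 and 2 in the first, and 6 were lower in the second. With limma on log2(FPKM + 1) and log2(FPKM + 0.1), 1 and 2 members were higher in aging against normal RGCs, and with DESeq2 or no low-count filter 2 were higher in medium-treated against aging RGCs. Leaving out each library in turn gave 3 to 5 higher and 3 to 5 lower members in the first comparison, 1 to 2 and 7 to 11 in the second and 2 to 3 and 10 to 12 in the third. The 7 came without aging replicate 3, and the 2 higher members in the second comparison without medium replicate 2. Without medium replicate 3, which had the most macrophage marker counts of its group, the second comparison had 1 and 11.

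Some differences that did not pass changed sign. In aging against normal RGCs, leaving out each library in turn gave -0.56 to 0.14 for Frzb (above 0 without normal replicate 1 or aging replicate 2), -0.075 to 0.071 for Fzd5 (above 0 without normal replicate 2 or 3 or aging replicate 2) and -0.032 to 0.19 for Wnt5a (below 0 without normal replicate 2). The limma fits with 1 and 0.1 added gave 0.024 and 0.042 for Fzd5 and -0.027 and -0.075 for Wnt5a. Lgr4 in medium-treated against aging RGCs was -0.054 without TMM factors, -0.0050 with upper-quartile factors and -0.033 and -0.049 in the limma fits. The causes were not tested.

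Without TMM factors the median of all genes was -0.11 in medium-treated against normal RGCs. Deviations of same-numbered libraries correlated at -0.034 to 0.049. No shift shared by number was visible, but such values cannot show whether same-numbered wells were handled together. The replicate block left the counts at 4 and 4, 1 and 10, and 3 and 12. Frzb, Wnt3 and Wnt4 rest on 1 to 35 counts a library, and the 34 untested members on at most 14.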
